A study of Homo sapiens with 2 samples.

Results

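The polyamines putrescine, spermidine and spermine are small, positively charged molecules that bind nucleic acids and are needed for cell growth. Ornithine, released from arginine by arginase, is decarboxylated to putrescine by ornithine decarboxylase, and spermidine synthase and spermine synthase then add aminopropyl groups drawn from decarboxylated S-adenosylmethionine. Cells hold the pool within narrow limits. Antizymes bind ornithine decarboxylase and send it to the proteasome, antizyme inhibitors sequester the antizymes, and spermidine/spermine acetyltransferase and spermine oxidase run the pathway backwards. In macrophages and microglia the use of arginine by arginase or by nitric oxide synthase is a known branch point of activation.

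The account covers 10 genes of this pathway, ARG2, ODC1, OAZ1, OAZ2, AZIN1, AMD1, SRM, SMS, SAT1 and SMOX, out of 26370 gene names in the deposited files. They were chosen by name, with earlier results of these libraries known, so the values below are descriptions and carry no test. The data are FPKM, which counts fragments relative to transcript length and to the depth of the library, summed over the transcript records of each gene. All 10 genes were found under their own symbols, all 10 passed the filter on low values, a mean over both libraries of 1 FPKM or more, and together they held 27 of the 56891 transcript records.

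The series has 1 library of CHME3 cells treated with muscarinic receptor antagonists at 5 µg/ml and 1 library of untreated CHME3 cells. CHME3 is an immortalised human line labelled as microglia, and both cultures were at passages 4 to 6. The labels call the dose an EC50 and name neither the compound nor the time of exposure. With 1 library per condition there is no replicate, so no difference below can be set against the spread between cultures, and treatment cannot be told apart from anything else that differed between the cultures.

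Estimated depth was 7301140 fragments in the treated and 6808145 in the untreated library. Of 14 microglia markers only CD68, a lysosomal protein of phagocytes, averaged 1 FPKM or more. There were 9 listed at 0 in both libraries, AIF1, TMEM119 and CX3CR1 among them, and the list summed to 12.7 FPKM in treated and 16.0 FPKM in untreated cells. Fibroblast and matrix markers summed to 5761 FPKM in treated and 5362 FPKM in untreated cells, with 6 of 10 over 1 FPKM. FN1 and VIM made up most of that sum, and COL3A1, DCN and LUM were listed at 0 in both libraries. The receptors that the antagonists target were all under 1 FPKM in both libraries, and CHRM2 and CHRM5 were listed at 0. The listed 18S ribosomal RNA, RNA18S5, was at 759 FPKM in treated and 363 FPKM in untreated cells, and its part in the differences below was not tested.

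SAT1 was lower in treated cells, while the enzymes of synthesis, the antizymes and the antizyme inhibitor lay close together in both libraries. A gene was counted as different when log2 of (treated FPKM + 1) over (untreated FPKM + 1) reached 1.2-fold, a rule of size. Of the 10 genes 1, SAT1, was lower by this rule, where 6.79% of all 11668 genes tested were lower. None of the 10 was 1.2-fold higher, where 8.1% of all genes were higher. None reached 2-fold, as did 0.66% of all genes. The count of 1 in 10 is near that background and says nothing of the genes as a set. Their median log2 ratio was -0.04, with 8 genes lower and 2 higher, against a median of 0.00 over all genes tested, whose quartiles were -0.10 and 0.11. Of all genes tested 5751 were lower and 5917 higher. The 8 lower genes include OAZ2 at -0.01 and OAZ1 at -0.02, so the split counts differences close to none.

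**Figure D1:**
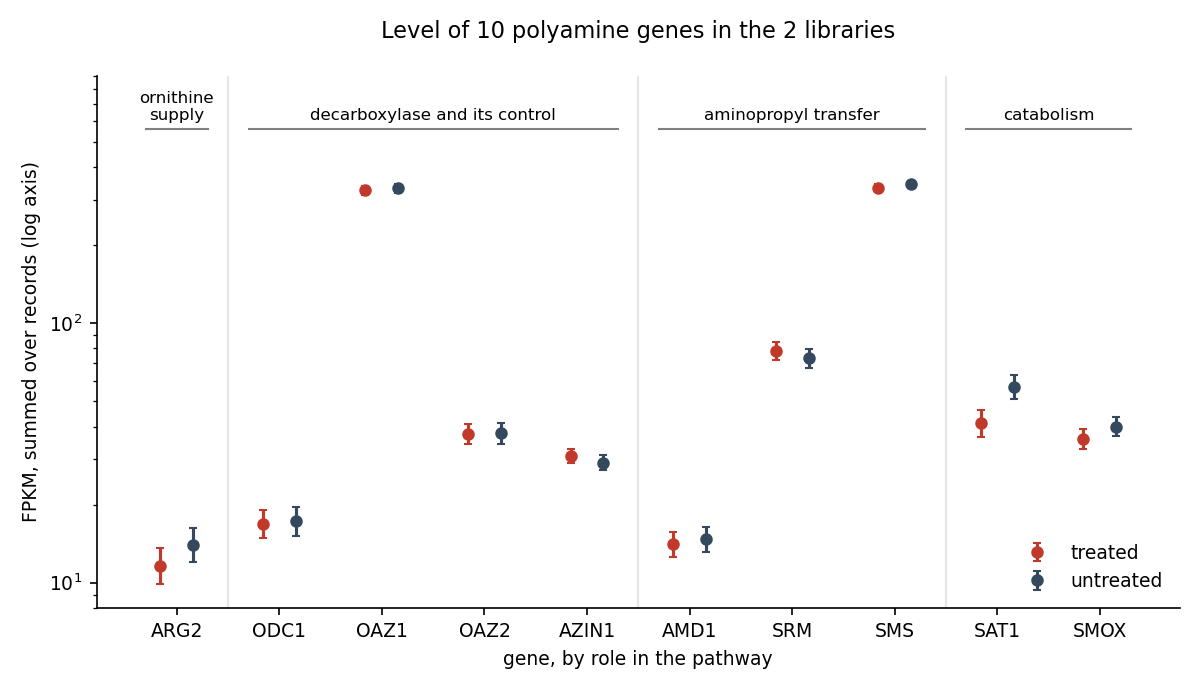
Level of each of the 10 genes in FPKM on a log axis, treated cells left of untreated cells, with genes ordered by their role. Bars are exact 95% Poisson counting intervals from the estimated fragments and hold no variation between cultures. The bars of SAT1, at 41.2 FPKM in treated and 56.8 FPKM in untreated cells, do not overlap, while those of the other genes do.

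The sequences shown are those on which regulation in this pathway, and the difference between transcript records described further on, turn. Antizyme messages carry a stop codon inside their coding region, and the ribosome must skip 1 base there to make the whole protein, a slip that polyamines promote. The first pair of lines gives that site in OAZ1 (hg38 chr19:2271431-2271454, plus strand) and OAZ2 (hg38 chr15:64691504-64691527, minus strand), with the stop codon in capitals. The next line gives the alternative exon of SAT1 (hg38 chrX:23784294-23784403, plus strand), with the stop codon that ends the SAT1 reading frame in capitals. The last gives the stretch of SMOX coding sequence (hg38 chr20:4182324-4182482, plus strand) that the record NM_175840 lacks, with its first and last 2 bases in capitals. All are reference sequence from GENCODE release 29 on GRCh38, the same assembly as hg38, written 5′ to 3′.
OAZ1 frameshift site: cggtggtgctccTGAtgcccctca
OAZ2 frameshift site: ctgtggtgctccTGAtgcccctca
SAT1 alternative exon: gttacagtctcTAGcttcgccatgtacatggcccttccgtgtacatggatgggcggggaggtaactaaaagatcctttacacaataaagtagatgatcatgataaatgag
SMOX stretch: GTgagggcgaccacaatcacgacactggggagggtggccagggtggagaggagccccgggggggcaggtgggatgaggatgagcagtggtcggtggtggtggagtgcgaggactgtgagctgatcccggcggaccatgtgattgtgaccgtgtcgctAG

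The OAZ1 and OAZ2 sites share 23 of 24 bases. The stop codon TGA follows 68 codons in OAZ1 and 32 codons in OAZ2. Past the skipped base 160 and 157 more codons follow, which gives proteins of 228 residues for OAZ1 and 189 for OAZ2. The SAT1 exon has 110 bases, which is not a multiple of 3, and its stop codon TAG falls after 71 codons of a frame that otherwise encodes 171 residues. The SMOX stretch has 159 bases, begins with GT and ends with AG, the usual ends of an intron, and its absence shortens the protein to 502 residues from 555.

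Ornithine supply was represented by ARG2, the mitochondrial arginase, which had the lowest level of the 10 genes. ARG2 (chromosome 14, 67619862 to 67651719) was at 11.6 FPKM in treated and 13.99 FPKM in untreated cells, from an estimated 153 and 171 fragments. Its FPKM ratio of treated over untreated was 0.832 with a 95% counting interval of 0.664 to 1.04, which includes 1. On the log2(FPKM + 1) scale the difference was -0.25, just inside the 1.2-fold rule, and 7.76% of all genes tested lay as low or lower. The plain FPKM ratio, without the added 1 FPKM, was 1.202-fold lower in treated cells, just past 1.2-fold, so the call rests on that addition. By the rule ARG2 was the closest of the 10 to the threshold, and SAT1, the single gene past it, lay well beyond. ARG2 overlaps the opposite-strand gene VTI1B by 570 bases at its 3′ end, and VTI1B was at 31.1 FPKM in treated and 32.9 FPKM in untreated cells. Whether strand was kept in library preparation is not given in the sources used here, so reads in that stretch could come from either gene.

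The other genes of arginine and ornithine supply gave no common direction. Of the 14 listed, 7 passed the filter, 2 of them higher and 5 lower in treated cells, with a median log2 ratio of -0.04. ASL, which releases arginine from argininosuccinate, was at 19.4 FPKM in treated and 15.2 FPKM in untreated cells, a ratio of 1.27 (1.05 to 1.548, where brackets give the 95% counting interval). OAT, which turns ornithine into glutamate semialdehyde, was at 43.7 FPKM in treated and 47.6 FPKM in untreated cells. SLC7A1, the main cationic amino acid transporter, was at 31.9 FPKM in treated and 29.9 FPKM in untreated cells. ASL alone of the 7 passed 1.2-fold, near the 14.9% of all genes tested that did either way. The liver arginase ARG1 was listed at 0 in both libraries. The inducible nitric oxide synthase NOS2 was listed at 0 in treated cells and at 0.0729 FPKM in untreated cells.

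ODC1, the decarboxylase that makes putrescine, was nearly the same in both libraries. ODC1 (chromosome 2, 10440371 to 10448554) was at 16.9 FPKM in treated and 17.3 FPKM in untreated cells, from 260 and 248 fragments, a ratio of 0.975 (0.816 to 1.17). A difference of less than about these bounds could not be seen at this depth. Both antizyme messages were more abundant than that of ODC1, and OAZ1 far more so. OAZ1, the principal antizyme (chromosome 19, 2269486 to 2273488), was at 326 FPKM in treated and 331 FPKM in untreated cells, a ratio of 0.984 (0.929 to 1.04). OAZ2, a second antizyme with the same slip site (chromosome 15, 64687574 to 64703281), was at 37.5 FPKM in treated and 37.7 FPKM in untreated cells, a ratio of 0.993 (0.872 to 1.13). Both antizyme messages together exceeded that of ODC1 by 21.6 times in treated and 21.3 times in untreated cells. Most of that sum was OAZ1, which stood 8.70 times above OAZ2 in treated and 8.78 times above it in untreated cells. These are messenger levels, and since antizyme protein is made only after the slip, they do not give protein levels.

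AZIN1, a catalytically inactive relative of ornithine decarboxylase that sequesters antizymes (chromosome 8, 102826302 to 102864200), was at 30.8 FPKM in treated and 29.1 FPKM in untreated cells, a ratio of 1.06 (0.965 to 1.17). It exceeded ODC1 by 1.83 times in treated and 1.68 times in untreated cells. Its relative AZIN2 was at 4.89 FPKM in treated and 4.08 FPKM in untreated cells, and counting allows a ratio between 0.822 and 1.76. OAZ3, an antizyme known from testis, was listed at 4.45 FPKM in treated and 4.88 FPKM in untreated cells, from 22 fragments in each. OAZ3 overlaps the opposite-strand gene MRPL9 by 948 bases, and MRPL9 was at 58.6 FPKM in treated and 63.1 FPKM in untreated cells, so the OAZ3 value is uncertain. Of the other pathway genes named, MAT2A, SAT2, APIP, DHPS and MAX also overlap a gene on the opposite strand.

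The genes of aminopropyl transfer ranged over more than an order of magnitude in level and were alike in both libraries. AMD1, which decarboxylates S-adenosylmethionine (chromosome 6, 110814621 to 110895712), was at 14.0 FPKM in treated and 14.7 FPKM in untreated cells, a ratio of 0.957 (0.818 to 1.12). AMD1 overlaps the opposite-strand gene CDK19 by 1265 bases, and CDK19 was at 4.03 FPKM in treated and 4.79 FPKM in untreated cells. That overlap lies at the far upstream start of the record NM_001287215, which was near 0 in both libraries, while the main record starts at position 110874784, outside it. SRM, spermidine synthase (chromosome 1, 11054592 to 11060034), was at 78.1 FPKM in treated and 73.4 FPKM in untreated cells, a ratio of 1.06 (0.947 to 1.197). It had the highest ratio of the 10 genes, yet its interval includes 1. SMS, spermine synthase (chromosome X, 21940573 to 21994837), was at 332 FPKM in treated and 344 FPKM in untreated cells, from 4009 and 3853 fragments, a ratio of 0.966 (0.924 to 1.01). SMS stood 4.26 times above SRM in treated and 4.69 times above it in untreated cells.

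Genes for the supply of the aminopropyl donor were also close in both libraries, and those for the salvage of its by-product were mostly slightly lower in treated cells. For S-adenosylmethionine, 3 of 4 listed genes were over 1 FPKM, with a median log2 ratio of -0.03. MAT2A, the synthetase subunit used outside the liver, was at 21.7 FPKM in treated and 22.4 FPKM in untreated cells, and its partner MAT2B at 26.7 FPKM in treated and 26.0 FPKM in untreated cells. AHCY, which clears S-adenosylhomocysteine, was at 259 FPKM in treated and 264 FPKM in untreated cells. All 5 genes of methylthioadenosine salvage were over 1 FPKM, 4 lower and 1 higher, with a median of -0.12. The lower quartile of all genes tested was -0.10. In the salvage list 1 gene was at least 1.2-fold lower, where 6.79% of all genes were, and 1 in 5 says nothing of the list.

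MRI1, an isomerase of this salvage route, was at 5.08 FPKM in treated and 6.94 FPKM in untreated cells, a ratio of 0.732 (0.566 to 0.946), and was the list's only gene past 1.2-fold. MTAP, which opens the route by splitting methylthioadenosine, was at 9.75 FPKM in treated and 10.7 FPKM in untreated cells. APIP, a dehydratase of the same route, was at 19.0 FPKM in treated and 20.8 FPKM in untreated cells. The intervals of both ratios include 1.

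SAT1 encodes the acetyltransferase that marks spermidine and spermine for export or oxidation, and its activity is known to be induced when polyamines are in excess. SAT1 (chromosome X, 23783158 to 23786223) was at 41.2 FPKM in treated and 56.8 FPKM in untreated cells, from an estimated 271 and 345 fragments. The ratio was 0.725 (0.616 to 0.852), or 1.38-fold lower in treated cells. The log2(FPKM + 1) difference was -0.46, and 1.89% of all genes tested lay as low or lower. Low-count genes spread more widely, and among the 4524 genes with at least SAT1's mean of 308 fragments, 2 lay as low, SAT1 included. SAT1 is at the shallow end of that set, and deeper genes spread less, so the comparison favours SAT1. The same kind of cut moved SMOX from 16.2% of genes as low or lower to 6.09%, and ARG2 from 7.76% to 2.49%. SAT1 was the only gene of the 10 whose counting interval excluded 1, as it did in 12.8% of all genes tested, below 1 in 6.2% and above 1 in 6.65%. The authors' bounds of its most abundant record, 32.6 to 43.1 FPKM in treated and 48.3 to 61.5 FPKM in untreated cells, did not overlap, a property shared by 7.64% of all genes tested. All of these figures come from the values that drew attention to the gene, so none is independent evidence of a difference.

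**Figure D2:**
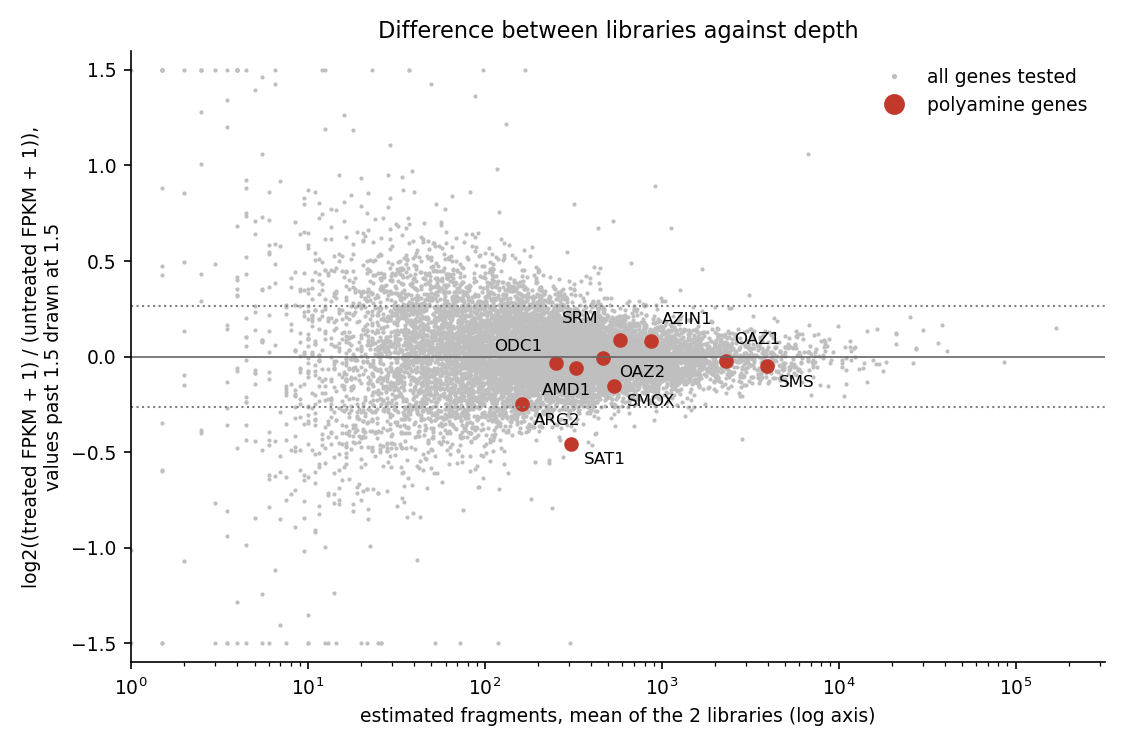
Difference between treated and untreated cells, as log2 of (FPKM + 1) ratios, against estimated fragments per gene on a log axis, with dotted lines at 1.2-fold. Grey points are the 11668 genes tested and red points the 10 polyamine genes. SAT1, at -0.46 and 308 fragments, lies below the main body of grey points at its depth, and the other 9 lie inside the dotted lines.

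SMOX encodes the oxidase that returns spermine to spermidine and releases hydrogen peroxide, and its values did not pass 1.2-fold. SMOX (chromosome 20, 4148779 to 4187747) was at 35.8 FPKM in treated and 39.9 FPKM in untreated cells, from 531 and 547 fragments. The ratio was 0.898 (0.795 to 1.01), whose interval includes 1. SAT1 and SMOX together summed to 77.0 FPKM in treated and 96.7 FPKM in untreated cells, against 441 FPKM in treated and 449 FPKM in untreated cells for ODC1, AMD1, SRM and SMS. Each sum is carried mainly by 1 gene. Most of the difference in the first was that of SAT1, and most of the level of the second was SMS, at 332 FPKM in treated and 344 FPKM in untreated cells. SAT1 exceeded ODC1 by 2.44 times in treated and 3.29 times in untreated cells.

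Of the 4 other genes listed for catabolism, 2 passed the filter and neither passed 1.2-fold. Of all genes tested 14.9% did either way, so the count says nothing of the list. SAT2, a relative of SAT1, was at 28.7 FPKM in treated and 33.6 FPKM in untreated cells, a ratio of 0.855 (0.687 to 1.06). PAOX, the peroxisomal oxidase of acetylated polyamines, was at 2.50 FPKM in treated and 2.37 FPKM in untreated cells, from 29 and 27 fragments. SATL1 stayed under 1 FPKM in both libraries, and the diamine oxidase gene AOC1 was listed at 0 in both.

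Across the 10 genes the order of levels was nearly the same in both libraries. In treated cells it ran SMS, OAZ1, SRM, SAT1, OAZ2, SMOX, AZIN1, ODC1, AMD1 and ARG2, and in untreated cells SMOX and OAZ2 changed places. SMS and OAZ1 were higher than 98.3% of genes tested in the treated library, and ARG2, the lowest, was higher than 53.0% of them. Some neighbours could not be separated by counting. In treated cells the interval of the ratio between neighbours included 1 for SMS and OAZ1, for SAT1 and OAZ2, for OAZ2 and SMOX and for AMD1 and ARG2. In untreated cells it included 1 for SMS and OAZ1, SMOX and OAZ2, ODC1 and AMD1, and AMD1 and ARG2. SAT1 stood apart from the next gene in untreated cells, 1.42 times SMOX (1.24 to 1.63), and not in treated cells, 1.10 times OAZ2 (0.943 to 1.28).

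Transcript records showed which messages made up each gene. ARG2 and SRM have 1 record each, and in ODC1, OAZ1, OAZ2, SMS and AMD1 a single record held at least 95% of the FPKM in both libraries. SAT1, SMOX and AZIN1 were divided among records. Reads that fit several records are apportioned by Cufflinks, so values of minor records rest on few reads that tell them apart. Of the 13 records that held at least 5% of their gene in a library, the authors' bounds failed to overlap between libraries in 1, the main SAT1 record. Over all 11668 genes tested, the bounds of the most abundant record failed to overlap in 7.64%, so 1 in 13 is near the background.

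**Figure D3:**
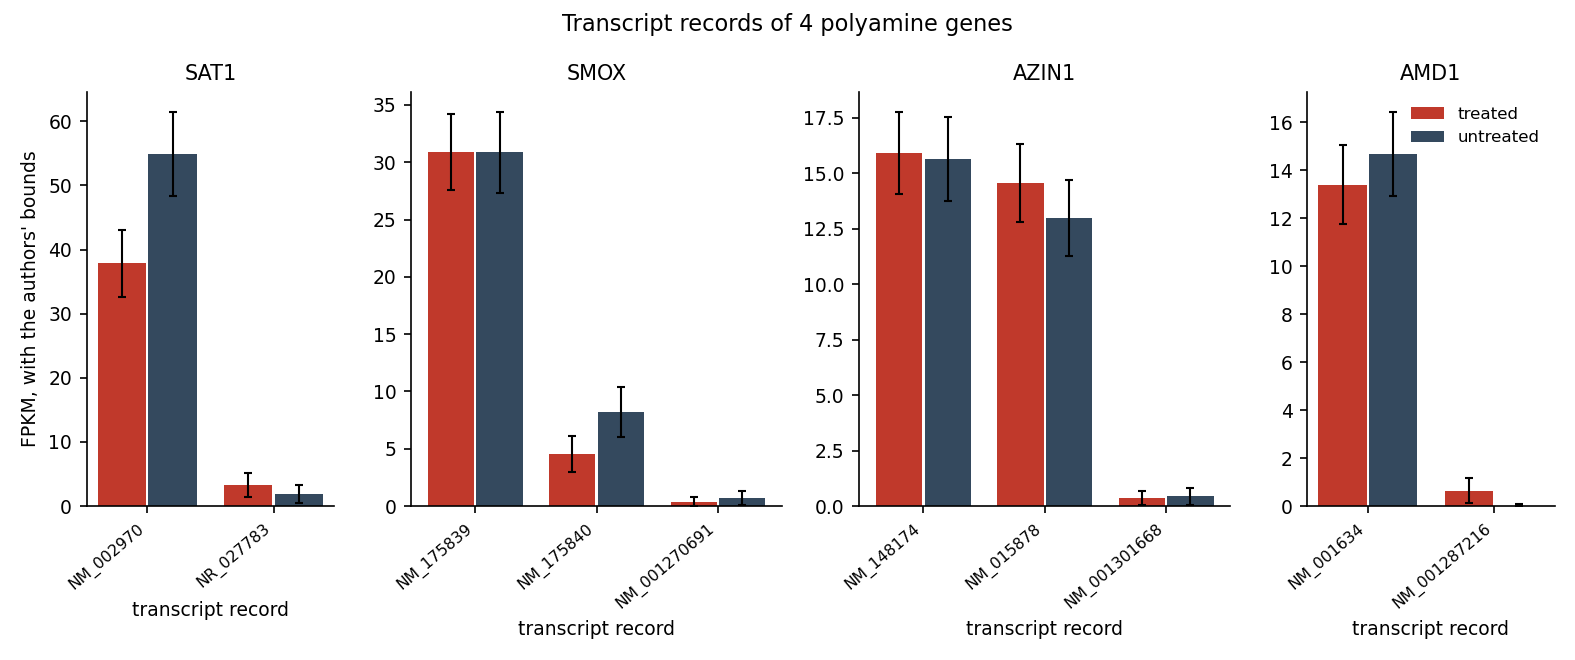
FPKM of the transcript records of SAT1, SMOX, AZIN1 and AMD1 that hold at least 1% of their gene in a library, treated bars left of untreated bars, with the authors' lower and upper bounds. The SMOX record NM_175839 is equal in height in both libraries at 30.9 FPKM, while NM_175840 and the main SAT1 record NM_002970 are lower in treated cells.

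In SAT1 both records were measured, and their values lay in opposite directions. The protein-coding record NM_002970 was at 37.9 FPKM in treated and 54.9 FPKM in untreated cells. NR_027783, which includes the 110-base exon printed above (chromosome X, 23784294 to 23784403), was at 3.31 FPKM in treated and 1.90 FPKM in untreated cells, from an estimated 24 and 13 fragments. As background, messages that include this exon are degraded through their early stop codon, and cells are known to include it less when polyamines are plentiful. The record's share of SAT1 was 8.05% in treated and 3.34% in untreated cells. Its bounds of 1.49 to 5.14 FPKM in treated and 0.486 to 3.31 FPKM in untreated cells overlap. A share shift of this size, 4.71 percentage points, was reached by 46.7% of the 3611 genes with several records that averaged 10 FPKM or more, so it is near the typical shift between these libraries.

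In SMOX the difference between the sums lay mostly in a shorter record. NM_175839, the most abundant, was at 30.9 FPKM in treated and 30.9 FPKM in untreated cells. NM_175840, which lacks the 159-base stretch printed above (chromosome 20, 4182324 to 4182482), was at 4.56 FPKM in treated and 8.25 FPKM in untreated cells. Its share of SMOX was 12.7% in treated and 20.7% in untreated cells. Its bounds, 2.97 to 6.15 FPKM in treated and 6.06 to 10.4 FPKM in untreated cells, overlap narrowly. The largest share shift in SMOX was 8.94 points, that of NM_175839, and 27.7% of the 3611 genes shifted by as much.

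**Figure D4:**
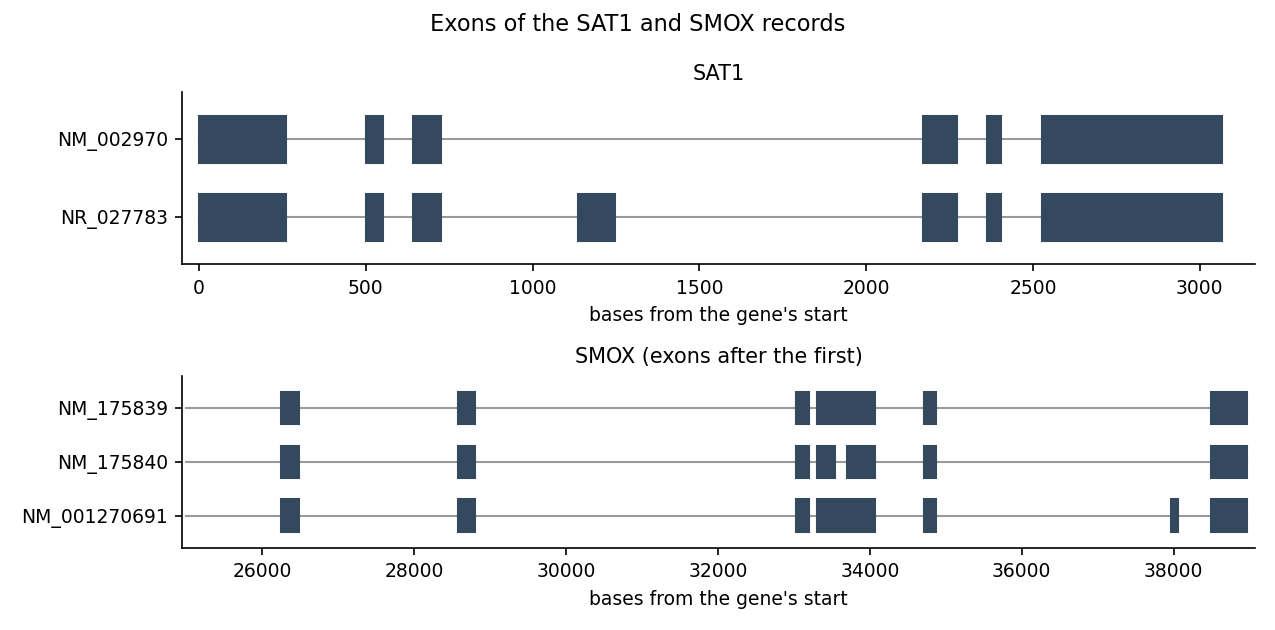
Exons of the SAT1 records and of the 3 most abundant SMOX records, as boxes placed by distance in bases from the gene's start, with introns as lines. NR_027783 has 1 exon more than NM_002970, and NM_175840 has a gap of 159 bases inside an exon of NM_175839.

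AZIN1 was split almost evenly between its main records, which differ by an exon of 146 bases. NM_148174, without that exon, was at 15.9 FPKM in treated and 15.6 FPKM in untreated cells, and NM_015878, with it, at 14.6 FPKM in treated and 13.0 FPKM in untreated cells. The exon-containing record thus held 47.3% of AZIN1 in treated and 44.7% in untreated cells, a shift that 63.3% of genes equalled or exceeded. In AMD1 the main record NM_001634 held 95.4% of the gene in treated cells and nearly all of it in untreated cells. NM_001287216, which lacks 4 internal exons of the main record, was at 0.646 FPKM (0.134 to 1.16, the authors' bounds) in treated cells and near 0 (up to 0.102) in untreated cells. These bounds do not overlap, although the record held under 5% of AMD1 in each library and so is not among the 13 counted above. A shift of its size was reached by 47.3% of the 3611 genes. The main OAZ2 record, NM_002537, held 98.3% in treated and 95.2% in untreated cells, and its alternative record differs from it by 3 bases. The main OAZ1 record, NM_004152, held 98.3% in treated and 97.7% in untreated cells, and the alternative differs by 6 bases. NM_004595 of SMS held 97.8% in treated and 97.5% in untreated cells. ODC1 was almost wholly listed under NM_002539, at 16.8 FPKM in treated and 17.3 FPKM in untreated cells.

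Polyamine transporters, the hypusine pathway and known regulators were measured beside the 10 genes. Of 10 transporter genes 4 passed the filter, and 5 were at 0 in both files. ATP13A3, a polyamine-transporting ATPase, was at 11.8 FPKM in treated and 10.2 FPKM in untreated cells, a ratio of 1.15 (1.02 to 1.30) that is under 1.2-fold. SLC3A2, the heavy chain of amino acid transporters, was at 81.0 FPKM in treated and 87.3 FPKM in untreated cells. SLC18B1, a vesicular polyamine transporter, was at 1.34 FPKM in treated and 0.721 FPKM in untreated cells, from 22 and 11 fragments. SLC18B1 passed the level filter only through its treated value, and its interval of 0.865 to 4.25 includes 1.

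Spermidine is also the donor for hypusine, a modified lysine of the translation factor eIF5A. DHPS, which starts this modification, was at 55.8 FPKM in treated and 57.0 FPKM in untreated cells, and DOHH, which completes it, at 14.7 FPKM in treated and 14.3 FPKM in untreated cells. EIF5A was at 610 FPKM in treated and 601 FPKM in untreated cells. EIF5A2, a less abundant eIF5A gene, was at 5.24 FPKM in treated and 5.64 FPKM in untreated cells. None of the 4 genes of this list over 1 FPKM passed 1.2-fold, where 14.9% of all genes tested did either way, so the count says nothing of the list. Of the regulators, MYC, a known activator of ODC1 transcription, was at 77.9 FPKM in treated and 85.7 FPKM in untreated cells, a ratio of 0.909 (0.840 to 0.984). The MYC interval lies below 1, as did the intervals of 6.2% of all genes tested. MAX, the partner of MYC, was at 11.7 FPKM in treated and 11.8 FPKM in untreated cells. NFE2L2, a transcription factor of the oxidative stress response, was at 33.3 FPKM in treated and 31.5 FPKM in untreated cells.

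Over all 8 pathway lists, 30 of 48 genes passed the filter, 12 higher and 18 lower in treated cells, with a median log2 ratio of -0.03. At least 1.2-fold differences were found in 2 higher genes, ASL and SLC18B1, and 1 lower gene, MRI1. SLC18B1 passed the level filter only through its treated value, so its place in that count was favoured by the filter. Over all genes tested 8.1% were higher and 6.79% lower by the same rule, so these counts are near the background, and the interval of SLC18B1 includes 1. Counting intervals lay above 1 in 2 genes, ASL and ATP13A3, and below 1 in 2, MRI1 and MYC. That too is near the background of 6.65% above and 6.2% below over all genes tested.

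**Figure D5:**
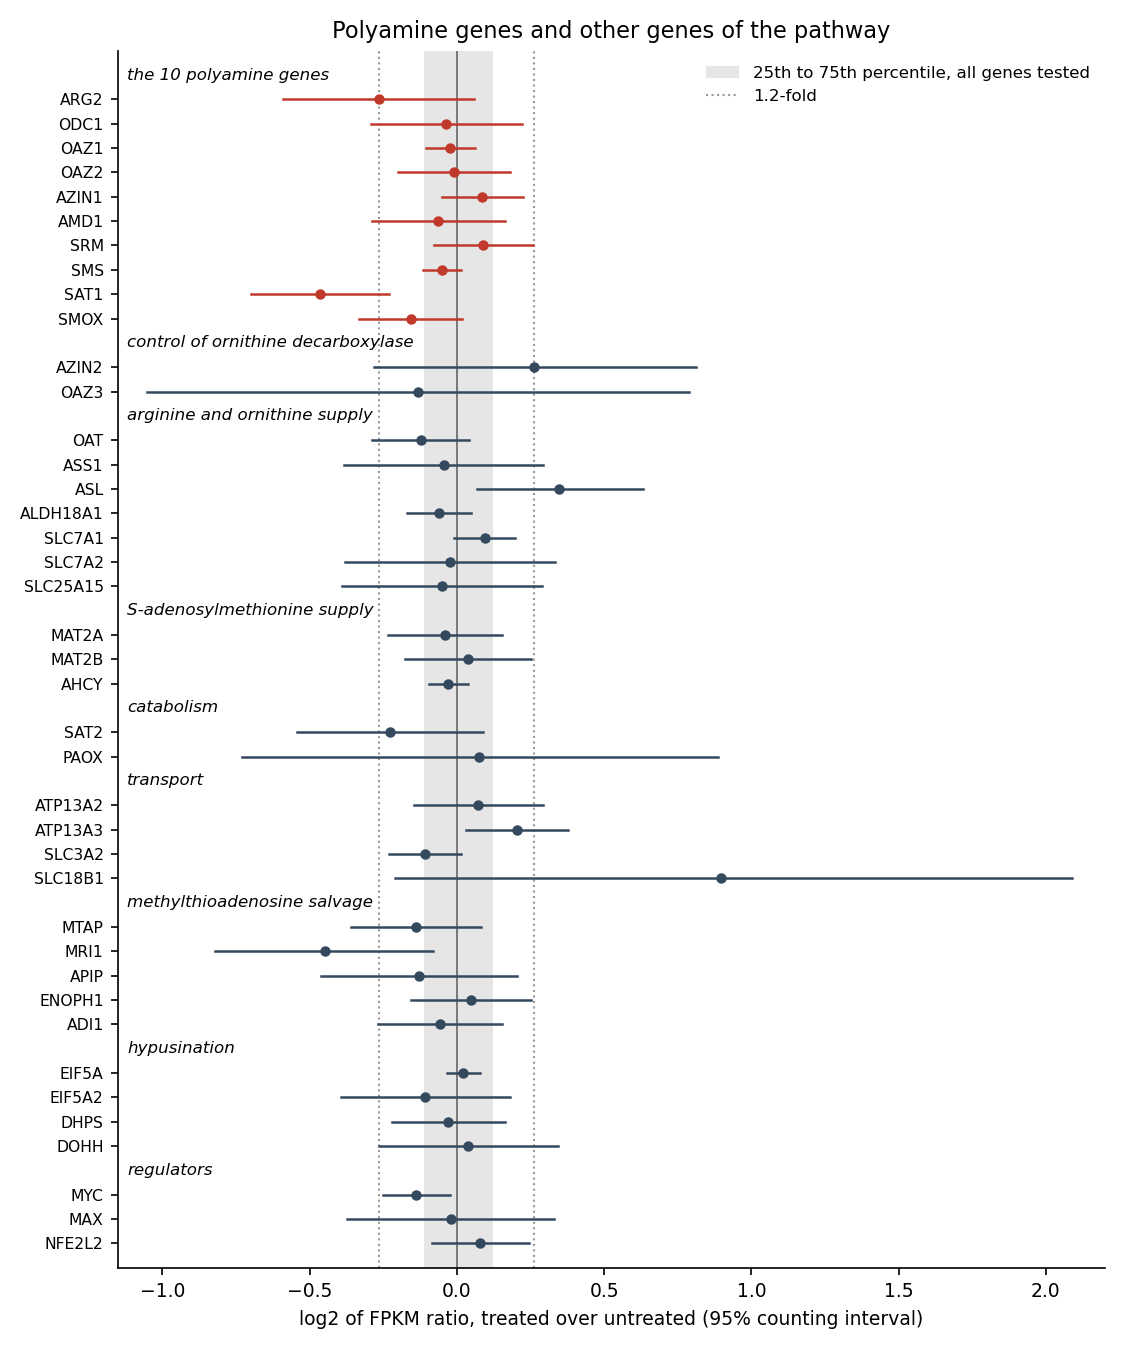
Log2 of the FPKM ratio of treated over untreated cells for the 10 polyamine genes (red) and the 30 other pathway genes that averaged 1 FPKM or more (dark), with 95% counting intervals. The band spans the 25th to 75th percentile of all genes tested with a value in both libraries, and dotted lines mark 1.2-fold. These are plain ratios without the added 1 FPKM, so the point of ARG2 lies just past the lower dotted line. Among the red points only the bar of SAT1 lies wholly below 0. In the other lists the bars of ASL and ATP13A3 lie above 0 and those of MRI1 and MYC below it. Over all genes tested 6.65% of intervals lay above a ratio of 1 and 6.2% below it, so these counts are near the background.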

How the data were processed

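Per the labels' protocols, TruSeq libraries of total RNA were sequenced on a HiSeq machine from Illumina. Per the submitters' processing notes, the tools were TopHat and Cuffdiff and the build was hg38, and each line of the deposited files names Cufflinks. Versions are not given in the sources used here. The deposited FPKM values, with the authors' lower and upper bounds, are per RefSeq transcript record. A deposited score per record was not used.

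FPKM was summed over the records of a gene, and genes averaging 1 FPKM or more were tested by size alone, with a pseudocount of 1 FPKM, which understates ratios of low genes. Fragments were recovered from single-record genes as the square of 2 × FPKM over the distance to the upper bound. Values within 0.01 of a whole number, at least 10 fragments and at least 1000 bases were used to regress fragments per FPKM on transcript length, without the 1% farthest from it. That regression gave the depth and every gene's estimated fragments. Checked on single-record genes of 20 fragments or more, estimated over recovered fragments had a median of 1.01 in each library. Fragments were rounded, and a counting interval is the 95% exact binomial interval of the treated share of both libraries' fragments, turned into a ratio. It covers counting error alone, leaving out PCR copies and the division of reads between records, and it compares libraries, not conditions. The method was checked on simulated data.

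Each sample was grouped by its treatment label. The 10 genes and the 8 pathway lists were chosen with earlier results of these data known. Named pathway genes are the up to 3 per list over 1 FPKM with the largest absolute log2 ratio. ARG1, NOS2, SATL1, AOC1, EIF5A and the AMD1 record NM_001287216 were named after their values were seen. Python 3.11.15, numpy 2.4.6, scipy 1.17.1 and pandas 2.3.3 were used.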

Additional observations from a re-analysis of the deposited data

How the results depend on the processing

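The log2 ratios and counts of the 10 genes and the medians of the pathway lists were recomputed under 8 other settings. With a mean of at least 5 FPKM, neither AZIN2 nor OAZ3 was left, so their list has no value there. Record shares, the order of levels, level ratios and counts within the pathway lists were not recomputed. These were pseudocounts of 0.1 and 0, no filter on low values, a mean of at least 5 FPKM, the most abundant record alone, fragments scaled to library depth in place of FPKM, centring on the median of all genes, and rescaling to equal totals of transcripts of at least 300 bases. All 80 recomputed log2 ratios of the 10 genes stayed within the half-width of their counting intervals, and that of SAT1 ran from -0.53 to -0.44. The count of genes past 1.2-fold was 2 with a pseudocount of 0.1 and 2 with a pseudocount of 0. There ARG2 joined SAT1, because a smaller pseudocount shrinks ratios less. The share of all genes tested past 1.2-fold either way rose too, from 14.9% as reported. It was 20.04% with a pseudocount of 0.1 and 20.4% with a pseudocount of 0, so 2 in 10 is near the background. The count among the 10 genes was 1 by the counting interval and 1 by the authors' bounds. No gene reached 2-fold under any of the 8. With the most abundant record alone, SMOX had a log2 ratio of 0.00, as its difference lies in another record. The same setting moved the median of AZIN2 and OAZ3 to -0.54 and that of the catabolism list to -0.29, and the cause was not tested. Ratios of genes with few fragments, such as SLC18B1, PAOX and OAZ3, are limited by depth. No paired analysis was possible because each condition has 1 library, and for the same reason no replicate could be left out.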
